A study of Bos taurus with 2 samples.

Results

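DCC/CTNNA2-high nuclei are 138 of the 1957 barcodes in a single-nucleus RNA library of bovine (Bos taurus) blastoids. They were chosen among the 288 deep barcodes, those with at least 4000 UMIs (unique molecular identifiers, 1 per captured RNA molecule), at least 500 genes and under 10% of UMIs from the 13 mitochondrial mRNAs. In a chosen barcode the UMIs of DCC and CTNNA2 together are at least 2 and at least as many as those of GATA2, GATA3 and GRHL1 together. DCC is a netrin receptor of growing axons and CTNNA2 is the neuronal alpha-catenin, which links cadherins to actin. GATA2, GATA3 and GRHL1 are transcription factors of the trophoblast. The chosen nuclei make up 47.9% of the deep barcodes (exact binomial 95% interval 42.0 to 53.9%), 7.05% of all barcodes in the library and 25.3% of its UMIs.

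A blastocyst holds the trophectoderm, the epiblast that forms the embryo proper, and the hypoblast that forms the yolk sac lining. The epiblast is marked by pluripotency factors such as NANOG, SOX2 and PRDM14, and the hypoblast by GATA4, HNF4A and PDGFRA together with basement membrane and serum carrier proteins. DCC, cadherins of the mesenchymal and neural kind, and HOX genes of the trunk are known from later embryos, where they act in axon guidance, in the change from epithelium to mesenchyme and in positions along the body axis.

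The study made blastoids, blastocyst-like structures, from wild-type (genotype WT) bEPSCs, bXENs and bTSCs, with 8, 8 and 16 cells of each per microwell, and compared them with day 8 blastocysts of the same genotype. The medium held LIF, activin A and Chir99021, which inhibits GSK3 and so raises WNT signalling. Feeder cells (iMEF) were depleted before aggregation, and nuclei were isolated from frozen material and run on 10x Genomics 3′ chemistry. Each group is 1 library, pooled from a number of blastoids or embryos that the labels do not state. No difference described here therefore has a replicate check, and no p-value is given.

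Summed UMIs are given as CPM (counts per 1000000 UMIs of the sum) with exact Poisson intervals, and ratios of 2 sums with exact conditional intervals, all at 95%. These intervals cover counting error only. The chosen nuclei held 1917237 UMIs, with 4159, 10993.5 and 59451 UMIs per nucleus as the lowest, median and highest. They were set against the other 150 deep blastoid barcodes (median 14719 UMIs) and 1656 shallow blastoid barcodes under 4000 UMIs (median 1927). From the blastocyst library came 92 epiblast-gated nuclei (NANOG and PRDM14, median 9910.5), 324 hypoblast-gated nuclei (GATA4, HNF4A and PDGFRA, median 8232.5) and 247 trophectoderm-gated nuclei (median 9020). The shallow barcodes carried 15.6% of their UMIs in ribosomal protein mRNAs, against 2.55% in the chosen nuclei and 2.51% in the other deep barcodes. The median mitochondrial share was 0.499% in the chosen nuclei and 0.39% in the other deep barcodes. The 2 libraries shared 1 barcode, and 0 of the chosen nuclei carried it.

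The selecting genes split the deep barcodes with few cases between. DCC and CTNNA2 together had 2, 42.5 and 629 UMIs (lowest, median, highest) in the chosen nuclei and 0, 1 and 7 in the others. GATA2, GATA3 and GRHL1 together had 0, 1 and 42 UMIs in the chosen nuclei and 0, 15 and 77 in the others. The nuclei were chosen by these values, which are a description. The share of DCC and CTNNA2 in the UMIs of all 5 selecting genes was under 20% in 137 deep barcodes, between 20 and 80% in 19 and at least 80% in 131, and 1 barcode had 0 UMIs of all 5. The trophoblast factors had 0 to 4 UMIs in 127 chosen nuclei and 9 or more in the other 11. Just inside the limits lay a nucleus with 2 UMIs of DCC and CTNNA2 against 2 of the trophoblast factors, and another with 40 against 38. Just outside lay a barcode with 7 against 25 and another with 1 against 1.

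**Figure D1:**
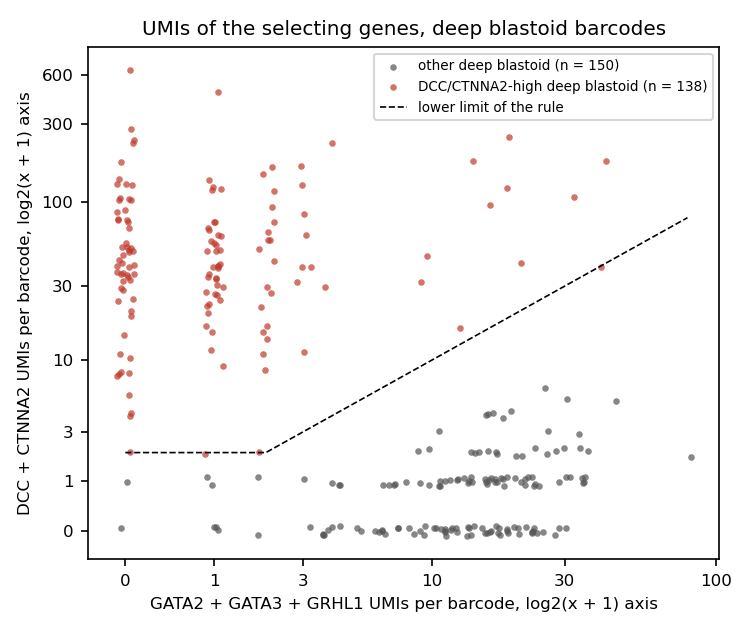
Each point is 1 deep blastoid barcode, with UMIs of GATA2, GATA3 and GRHL1 on the x axis and of DCC and CTNNA2 on the y axis, both on a log2(x + 1) scale with a small random shift so that equal counts can be seen; the dashed line is the lower limit of the rule. The chosen nuclei lie between 2 and 629 on the y axis and the others between 0 and 7, and 11 of the 138 chosen nuclei lie at 9 or more on the x axis.

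The nuclei were proposed with 5 marker genes, of which 3 are outside the rule. AUTS2, a chromatin regulator of developing neurons, was at 0, 29.8 and 127.1 UMIs per 10000 UMIs of the nucleus (lowest, median, highest). In the other deep barcodes it was at 0, 0 and 31.4, and 64 of the 138 chosen nuclei lay above the highest of those. TENM4, a teneurin adhesion receptor, was at 0, 9.23 and 50.4 against 0, 0 and 3.51, and 118 chosen nuclei lay above the highest of the others. NLGN1, a postsynaptic adhesion protein, was at 0, 5.97 and 53.9 against 0, 0 and 9.27, with 44 above. For each of these 3 genes most chosen nuclei lay above the median of the others, and some chosen nuclei were at 0. These genes come from the same UMI counts that set the nuclei apart, so their differences from the other deep barcodes are descriptions.

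Some transcription factors of the neural tube were high in these nuclei and relatives of them were not. Of the genes compared with the other deep barcodes, 2 of 5 PAX genes were at least 2-fold higher and 1 lower, 6 of 9 SOX genes higher and 1 lower, and 3 of 3 ZIC genes higher. A gene was compared where both sums together held at least 10 of its UMIs, and of all 15377 such genes 20.7% were at least 2-fold higher and 17.3% at least 2-fold lower, with a median log2 ratio of -0.00019. PAX3, a factor of the dorsal neural tube, neural crest and muscle precursors, reached 1351 CPM against 18.4 in the other deep barcodes, a ratio of 73.6 (54.6 to 101.5). It was at 0, 10.3 and 62.8 per 10000 UMIs in the chosen nuclei and at 0, 0 and 2.12 in the others, and 101 chosen nuclei lay above that highest value. PAX3 had a UMI in 82.6% of the chosen nuclei, and in 75.4% once each nucleus was thinned to 4000 UMIs. The thinned share in the other deep barcodes was 9.33%. PAX3 CPM was higher in the shallow barcodes than in the other deep ones, as given below. PAX3 reached 6.21 CPM in epiblast-gated, 4.47 in hypoblast-gated and 1.95 in trophectoderm-gated blastocyst nuclei.

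ZIC2, a zinc finger factor of the neural plate and epiblast, stood at 95.5 CPM against 8.35 in the other deep barcodes. RFX4, known from the developing neural tube, had a median of 4.22 per 10000 UMIs against 0, and 42 chosen nuclei lay above the highest of the others. MEIS2, a cofactor of HOX proteins, reached 734.4 CPM against 24.6. SOX5 reached 1779 CPM against 177.9. LMX1A, a factor of the roof plate, was found in 21 nuclei with 118 UMIs against 1 UMI in the other deep barcodes, while its relative LMX1B had 7 UMIs against 113. Of 5 neural crest genes compared, 4 were at least 2-fold higher and 1 at least 2-fold lower, beside 20.7% and 17.3% of all genes. SOX10 was at 0 UMIs. MEIS2, SOX5, RFX4 and LMX1A were picked after values had been seen.

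SOX1, a neural plate factor, had 0 UMIs in the chosen nuclei. A count of 0 allows up to 3 counts in the sum. PAX6, the other widely used neural plate marker, had 21 UMIs (10.9 CPM) against 7.1 CPM. SOX1 and PAX6 were thus at or near 0 while PAX3, ZIC2 and RFX4 were present, and the nuclei are called here by their selecting genes and by no cell type.

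HOX genes, which set position along the trunk in bilaterians, were higher in every member compared. The family was picked after values had been seen. Of 37 HOX symbols, 24 had at least 10 UMIs in the 2 sums, and all 24 of those were at least 2-fold higher in the chosen nuclei than in the other deep barcodes. The HOX median log2 ratio was 3.26, beside the 20.7% of all genes that were higher by 2-fold and their median of -0.00019. HOX UMIs summed to 1996 CPM in the chosen nuclei and 191.6 in the other deep barcodes. Per nucleus the sum was at 0, 19.9 and 63.9 per 10000 UMIs against 0, 1.8 and 9.36. The groups overlapped little, with 107 of 138 chosen nuclei above the highest of the others and 2 at 0.

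The HOX UMIs came from the middle of the clusters. Paralogue numbers 3 to 9 held 3730 UMIs (1946 CPM), numbers 1 to 2 held 61 and numbers 10 to 13 held 35. HOXD3 (476.2 CPM), HOXB6 (246.7), HOXB3 (192.5), HOXC6 (179.4), HOXC4 (172.6) and HOXA3 (147.6) led. In the other deep barcodes these 6 genes stood at 7.93 to 69.3 CPM. In the blastocyst library the 20 genes of numbers 3 to 9 came to 31.0 CPM in epiblast-gated, 23.4 in hypoblast-gated and 32.8 in trophectoderm-gated nuclei. HOXA3, at 283 UMIs in the chosen nuclei, had 0 UMIs in both epiblast-gated and hypoblast-gated nuclei. Against the floor of 3 counts per group it was at least 47.6-fold higher than in the first and at least 143-fold higher than in the second. The shallow blastoid barcodes also carried HOX RNA, at 724.3 CPM for numbers 3 to 9, and HOXB8 was higher there (82.9 CPM) than in the chosen nuclei (44.3). A HOX UMI was found in 136 of 138 chosen nuclei and, after thinning, in 95.7% of them, against 56.7% of the other deep barcodes and 10.8 to 13% of blastocyst nuclei.

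**Figure D2:**
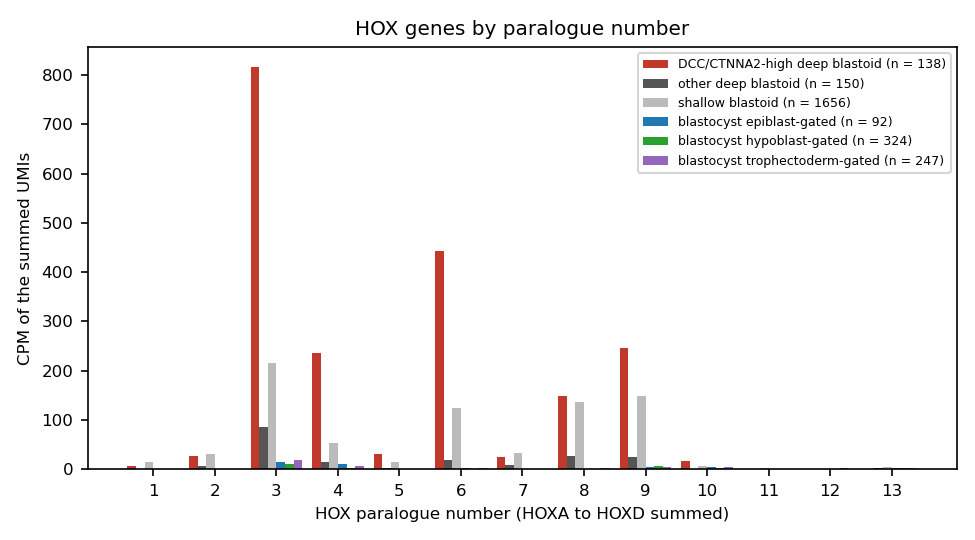
Bars give the summed CPM of the HOX genes of each paralogue number (x axis), HOXA to HOXD together, in the 6 groups of barcodes, without error bars. Numbers 3 to 9 come to 1946 CPM in the DCC/CTNNA2-high nuclei and 724.3 in the shallow blastoid barcodes, which are lower for each of these numbers except 7, while the 3 blastocyst groups stay between 23.4 and 32.8.

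Genes of neurons formed a second set. The neural list held 15 genes that were not used by the rule and had at least 10 UMIs. Of these, 11 were at least 2-fold higher than in the other deep barcodes and 1 was at least 2-fold lower, beside 20.7% and 17.3% of all genes. Their median log2 ratio was 2.89. The whole list came to 2609 CPM in the chosen nuclei, 212.1 in the other deep barcodes and 749.5 in the shallow ones. Summed over the list, the chosen nuclei held 3.51, 24.5 and 95.2 UMIs per 10000, and the others 0, 1.68 and 10.4. NCAM1, the neural cell adhesion molecule, stood at 1369 CPM against 41.8 and was found in 136 nuclei. SYT1, a synaptic vesicle protein, stood at 377.1 against 19.6, and SNAP25, of the vesicle fusion machinery, at 265.5 against 35.9. ELAVL4, an RNA-binding protein of newborn neurons, had 94 UMIs in 40 nuclei against 6 UMIs. STMN2, a tubulin regulator of growing axons, stood at 359.9 CPM against 55.9, and the shallow barcodes carried more of it, at 451.3. INA, a neuronal intermediate filament, was the gene that was lower, with 2 UMIs against 10.

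Adhesion and guidance genes made up the largest list. Without DCC and CTNNA2, 55 genes of it were compared, with a median log2 ratio of 3.26. Of these, 45 were at least 2-fold higher in the chosen nuclei and 3 at least 2-fold lower, beside 20.7% and 17.3% of all genes. Summed per nucleus the list overlapped, at 53.6, 168.4 and 321.2 UMIs per 10000 (lowest, median, highest) against 9.36, 79.4 and 463.2, and 0 chosen nuclei lay above the highest of the others. The ligands included SLIT2, a repellent of axons, at 1278 CPM against 19.6, SLIT3 at 428.7 against 22.6, SEMA3A, another repellent, at 130.4 against 3.34, and NTN1, the netrin that binds DCC, at 88.2 against 12.9. SLIT2 was at 0, 6.39 and 129.1 per 10000 UMIs, against 0, 0 and 5.58 in the others, and 76 chosen nuclei lay above those.

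Among the receptors, ROBO1, which binds SLIT proteins, stood at 849.7 CPM against 46.4, and ROBO2 at 528.9 against 31.7. NEO1, a relative of DCC that binds netrin and RGM proteins, stood at 885.6 against 26.3, and the netrin receptors UNC5C and UNC5D at 147.6 and 178.9 against 12.1 and 8.35. UNC5B, another member of that family, went the other way, at 55.3 against 260.1. DSCAM, a homophilic adhesion receptor, was lower as well, at 32.3 CPM against 204.2. ADGRL2 and ADGRL3, latrophilins that bind teneurins, were close to the others, with ratios of 1.15 (1.09 to 1.21) and 1.2 (1.13 to 1.27). TENM3, a teneurin, stood at 964.9 against 51.8.

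**Figure D3:**
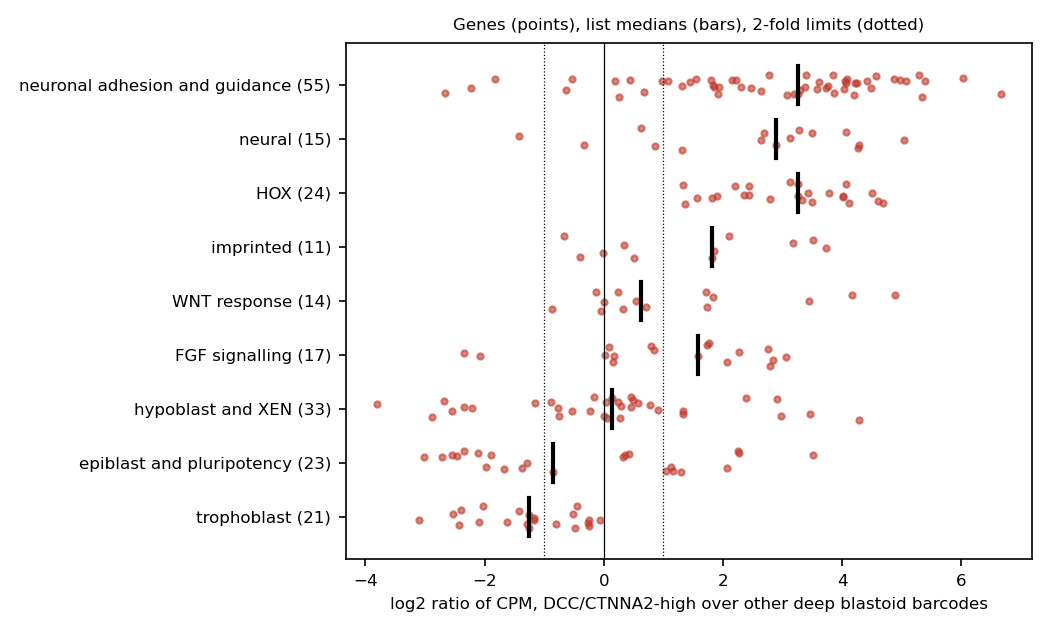
Each point is a gene with at least 10 UMIs in the 2 sums, placed by its log2 ratio of CPM in the DCC/CTNNA2-high nuclei over the other deep blastoid barcodes (x axis), with 1 row per list and the number of genes in brackets; black bars are medians and dotted lines mark a 2-fold difference. The neuronal adhesion and HOX medians lie at 3.26 and the neural median at 2.89, while the epiblast and trophoblast medians lie at -0.86 and -1.26.

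Cadherins differed between the 2 kinds of deep barcode. Of 18 cadherin and epithelial state genes compared, 7 were at least 2-fold higher in the chosen nuclei and 5 at least 2-fold lower, beside 20.7% and 17.3% of all genes. CDH1, the epithelial cadherin, was at 0, 0 and 4.58 UMIs per 10000 in the chosen nuclei and at 0, 3.68 and 11.9 in the others, and stood at 97.5 CPM against 421.7, or 4.32-fold lower (3.7 to 5.08). In the 127 chosen nuclei with few trophoblast factor UMIs it stood at 57.1 CPM. CDH2, the neural and mesenchymal cadherin, was at 0, 12.2 and 34.4 against 0, 0 and 27.1, and stood at 1294 CPM against 64.7. CDH6, a cadherin of neural tube and kidney, stood at 1526 CPM against 21.3, with 108 of 138 nuclei above the highest of the others. ZEB2 and ZEB1, repressors of CDH1, stood at 1441 and 267.1 CPM against 27.6 and 19.2. ESRP1, a splicing factor of epithelia, stood at 39.6 against 297.7 and at 12.1 in those 127 nuclei, and EPCAM, an epithelial adhesion protein, at 184.6 against 326.5. In the blastocyst, CDH1 stood at 485.2 (epiblast-gated) and 610.8 (hypoblast-gated), and CDH2 at 184.1 and 119.1.

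Which of the seeded lines, bEPSC or bXEN, the profile is nearest to was asked next. No library of the cultured lines was analysed here, so the blastocyst's epiblast-gated and hypoblast-gated nuclei and lists of genes of each lineage stand in for them. The 2 blastocyst gates were close to each other in many genes: HNF4A stood at 593.8 CPM in the first and 579.1 in the second, and 97.8% of epiblast-gated nuclei had UMIs of both regulator sets described below. NANOG stood at 123.1 CPM in the first and 13.1 in the second.

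On the epiblast side, NANOG had 3 UMIs in the chosen nuclei, 1.56 CPM (0.323 to 4.57), and PRDM14 had 1 UMI. In epiblast-gated nuclei, which these 2 genes selected, NANOG stood at 123.1 and PRDM14 at 159.3 CPM. SOX2, a factor of both epiblast and neural cells, had 84 UMIs in 53 chosen nuclei, 43.8 CPM (35.0 to 54.2), against 9.19 in the other deep barcodes. That was 4.77 times the others (2.95 to 8.01) and close to the epiblast-gated level of 59.0 CPM, with a ratio of 0.743 (0.525 to 1.06). SOX2 stood higher in the shallow barcodes, at 69.3 CPM. LIN28B, an RNA-binding protein of early cells, stood at 492.4 CPM against 200.8 in the other deep barcodes and 168.6 in epiblast-gated nuclei. SALL4 was nearly level with the other deep barcodes, at 53.2 CPM against 39.7.

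Epiblast and pluripotency genes were divided. Of the 23 epiblast and pluripotency genes compared with the other deep barcodes, 8 were at least 2-fold higher and 11 at least 2-fold lower. Of all genes, 20.7% were higher and 17.3% lower by that limit. The median log2 ratio of the list was -0.86. With no minimum count the median was 0.32, since genes under the floor of 3 counts then take the ratio of the 2 totals. Summed per nucleus, the list was at 3.8, 11.1 and 28.8 UMIs per 10000 against 4.05, 15.6 and 28.6. The lower ones included KLF5 (40.7 CPM against 224.6), ESRRB (10.4 against 68.9), TFCP2L1 (6.78 against 39.7) and DPPA4 (10.9 against 88.9). In the 127 chosen nuclei with few trophoblast factor UMIs these 4 stood at 22.8, 5.07, 4.44 and 6.98 CPM in that order. Against epiblast-gated nuclei, where 23.8% of 14395 genes were at least 2-fold higher and 17.0% at least 2-fold lower, 5 of 23 listed genes were higher and 14 lower, with a median log2 ratio of -1.42. Scaled by the median ratio of genes with at least 100 UMIs, 31.8% of all genes were higher and 12.4% lower. DPPA4 was 64.0-fold lower than in those nuclei (41.5 to 104.1), OTX2, a factor of epiblast and forebrain, 38.9-fold lower (16.1 to 122.4) and TFCP2L1 20.4-fold lower (11.6 to 39.4). ZIC2 and LIN28B were among the 5 that were higher.

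On the hypoblast side, FOXA2 had 0 UMIs, SOX17 had 1, and GATA4 and HNF4A had 4 each, of which 3 sat in 1 nucleus. GATA6, which the blastocyst expresses in all 3 groups, stood at 22.9 CPM (16.7 to 30.8) in the chosen nuclei, 106.1 in the other deep barcodes and 954.5 in hypoblast-gated nuclei, a 41.6-fold difference (30.9 to 57.4). PDGFRA, a hypoblast receptor, had 21 UMIs in 16 nuclei, 10.9 CPM, against 363.4 in hypoblast-gated nuclei, which it helped select. FN1 and NID1, matrix proteins of the hypoblast, were 21.5-fold lower (19.3 to 23.9) and 28.8-fold lower (20.3 to 42.3) than there, and KIT, a receptor tyrosine kinase, 13.1-fold lower (10.6 to 16.3).

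Counted gene by gene against the other deep barcodes, the hypoblast list was near the share of all genes. COL18A1, a basement membrane collagen, stood at 124.7 CPM against 15.9 in the other deep barcodes and 140 in hypoblast-gated nuclei, where the ratio of 0.89 (0.755 to 1.05) included 1. Of 33 hypoblast and XEN genes compared with the other deep barcodes, 7 were at least 2-fold higher and 7 at least 2-fold lower, near the 20.7% and 17.3% of all genes, with a median log2 ratio of 0.13, which was -0.57 when barcodes from 2000 UMIs were taken in. The list's summed level was lower, at 2208 CPM against 5916 in the other deep barcodes and 8981 in hypoblast-gated nuclei, which 3 of its genes selected. Per nucleus it was at 4.81, 18.9 and 83.6 UMIs per 10000 (lowest, median, highest) against 17.5, 56.1 and 137.2 in the other deep barcodes, with 59 chosen nuclei below the lowest of the others. Against hypoblast-gated nuclei, where 24.0% of 15826 genes were at least 2-fold higher and 19.8% at least 2-fold lower, 12 of 32 were higher and 10 lower, with a median of -0.18.

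The endocytic receptor LRP2 and its adaptor DAB2, which are shared by hypoblast and trophoblast, were lower in the chosen nuclei than in the other deep barcodes, at 486.6 CPM against 3592 and 161.2 against 947.8. The 11 nuclei with trophoblast factors held 539 of the 933 LRP2 UMIs and 213 of the 309 DAB2 UMIs, and the other 127 stood at 249.9 and 60.9 CPM. Serum carrier genes were present in both kinds of deep barcode and highest in the shallow ones. AFP stood at 38.6 CPM in the chosen nuclei, 43.4 in the other deep barcodes and 259.4 in the shallow barcodes, with 0 UMIs in the 3 blastocyst groups. APOA1 stood at 187.2, 183.3 and 1254 CPM in the same order, and RBP4 at 81.4, 59.3 and 489.2. How much of these counts in the chosen nuclei is RNA free in the droplets was not tested.

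**Figure D4:**
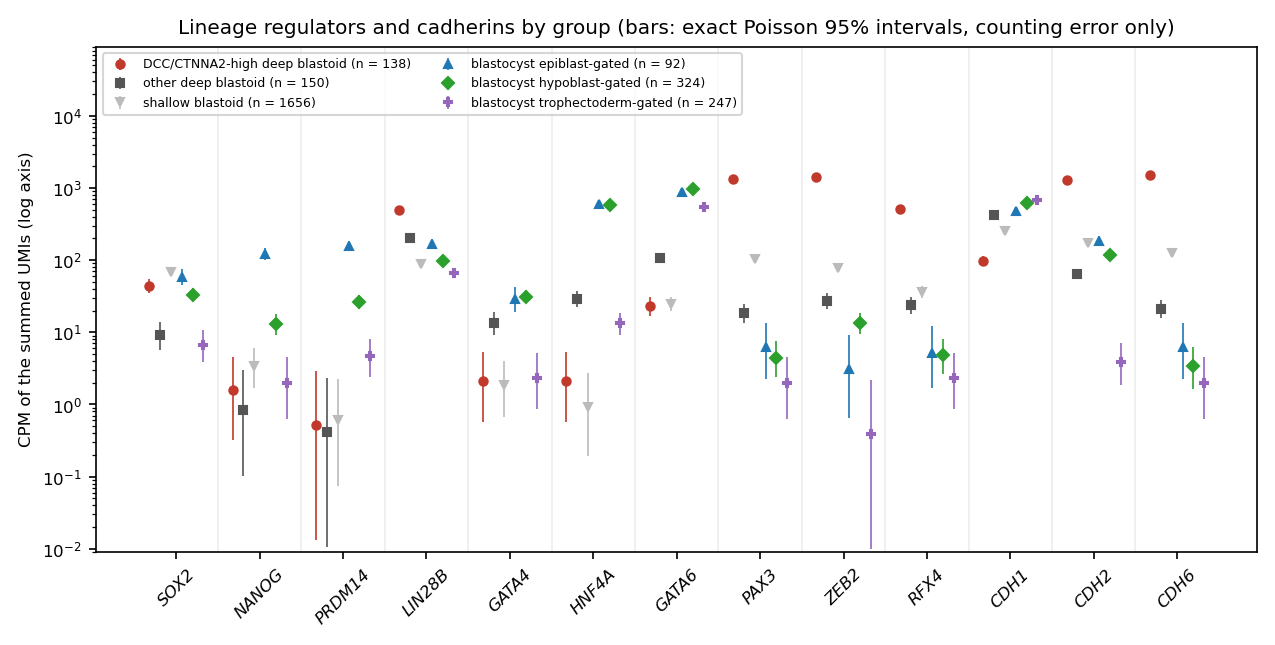
Points give the CPM of 13 genes (log axis) in the 6 groups of barcodes, with exact Poisson 95% intervals as bars for counting error; a group with 0 UMIs of a gene has no point. The DCC/CTNNA2-high nuclei (red circles) lie at 1351 CPM for PAX3 and 1441 for ZEB2, at 1.56 for NANOG and 2.09 for HNF4A, and at 43.8 for SOX2.

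Per nucleus, at least 1 UMI of SOX2, NANOG, PRDM14, LIN28A or SALL4 was found in 104 of 138 chosen nuclei, 75.4% (67.3 to 82.3). At least 1 UMI of GATA4, HNF4A, SOX17, FOXA2 or PDGFRA was found in 19, 13.8% (8.5 to 20.7). Both sets were found in 9 nuclei and neither in 24. The other deep barcodes gave similar shares, 65.3% and 12.7%. After thinning to 4000 UMIs the shares were 34.1% and 7.97% in the chosen nuclei and 24.7% and 5.33% in the others. The first set in the chosen nuclei consisted of SOX2 (84 UMIs), SALL4 (102) and LIN28A (56), with 4 UMIs of NANOG and PRDM14 together.

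Defining genes of both lineages were at or near 0 in the chosen nuclei. NANOG, PRDM14 and OTX2 were at or under 5 UMIs, and so were GATA4, HNF4A, SOX17 and FOXA2. Other genes of both lists were at levels like those of the matching blastocyst nuclei or above, among them SOX2, LIN28B and ZIC2 from the epiblast list. From the hypoblast list, LAMA1, a laminin, stood at 93.4 CPM against 15.1 in hypoblast-gated nuclei, and APOE, a lipid carrier, at 96.5 against 11.4. FST, an activin inhibitor, stood at 72.5 against 1.38. Summed over all 138 nuclei, the same held for COL18A1, AFP, RBP4, LRP2 and DAB2. AFP and RBP4 were higher still in the shallow barcodes. Of LRP2 and DAB2, 539 and 213 UMIs lay in the 11 nuclei with trophoblast factors, and 394 and 96 in the other 127. Against hypoblast-gated nuclei, 12 of 32 hypoblast genes were at least 2-fold higher and 10 lower, beside 24.0% and 19.8% of all genes. Against epiblast-gated nuclei, 5 of 23 epiblast genes were at least 2-fold higher and 14 lower, beside 23.8% and 17.0% of all genes. The 5 of 23 are thus near the share of all genes. Spearman correlation of CPM across genes was 0.789 with the other deep barcodes, 0.721 with hypoblast-gated, 0.695 with epiblast-gated and 0.695 with trophectoderm-gated nuclei. These values are across 14395 to 15826 genes, which are not independent replicates. The sums differ in depth and in the genes compared, so these values do not rank nearness to the 2 lineages, and the highest one is with barcodes of the same library and so of the same free RNA and batch.

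Among the deep barcodes outside the rule, 4 had at least 5 UMIs of HNF4A and GATA4 and held 63 of the 70 HNF4A UMIs of that group. They had under 5 UMIs of the trophoblast factors, so the rule itself holds their DCC and CTNNA2 count low. Among the chosen nuclei 1 reached 5 such UMIs, with 6.

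Trophoblast genes were lower than in the other deep barcodes and higher than in 2 of the 3 blastocyst groups. Of 21 genes of that list that were not used by the rule, 0 were at least 2-fold higher than in the other deep barcodes. At least 2-fold lower were 13, beside 20.7% higher and 17.3% lower of all genes, with a median log2 ratio of -1.26. Against epiblast-gated nuclei 16 of 20 were at least 2-fold higher and 2 lower, beside 23.8% and 17.0% of all genes, with a median of 2.31. Against hypoblast-gated nuclei 16 of 20 were higher and 2 lower, beside 24.0% and 19.8% of all genes, with a median of 2.97. Against trophectoderm-gated nuclei, where 27.2% of 15478 genes were at least 2-fold higher and 19.6% at least 2-fold lower, 6 of 21 were higher and 6 lower, with a median of -0.35. TP63, a factor of trophoblast and squamous epithelium, stood at 22.4 CPM against 191.6, GRHL2, an epithelial factor, at 22.4 against 118.2, and PTGS2, the prostaglandin synthase, at 118.9 against 487.3. The 11 nuclei held 34 of the 43 TP63 UMIs and 25 of the 43 GRHL2 UMIs, and the other 127 stood at 5.71 and 11.4 CPM, with PTGS2 at 86.9. Keratins were nearer to the others. KRT18, a keratin of simple epithelia, was at 1.6, 9.74 and 37.6 UMIs per 10000 against 4.17, 12.6 and 85.8, and had UMIs in all 138 nuclei. It stood at 898.2 CPM in the chosen nuclei and 6236 in the shallow barcodes. PAGE4, a placental gene, stood at 227.4, 270.1 and 1497 CPM in the chosen, other deep and shallow barcodes. Summed over 25 listed genes, the chosen nuclei held 8.36, 27.8 and 91.2 UMIs per 10000 and the others 16.7, 44.0 and 185.8. The part of free trophoblast RNA in the chosen nuclei was not tested.

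The 138 nuclei were not uniform. The trophoblast factors used by the rule had 0 to 4 UMIs in 127 nuclei and 9 to 42 in 11, with none between. The 11 nuclei had a median of 32598 UMIs, against 10419 in the 127. They carried trophoblast-side genes that were low in the rest, including MFAP5, a microfibril protein (1525 CPM against 55.8), KCTD8 (1569 against 106.5), TLL1, a protease (978.2 against 64.1), and CDH1 (284.9 against 57.1). They also carried ZEB2 at 1310 CPM and HOXB6 at 232.1, against 1469 and 249.9 in the 127. DCC, which the rule requires together with CTNNA2, stood at 1281 against 2789 and is a description only. Of the 30 blastoid barcodes with the highest doublet scores, a number fixed by the 1944 barcodes scored, 0 were among these 11 nuclei. So small a share makes 0 of 11 likely for any 11 barcodes, so the 0 says nothing about doublets. Expression of both gene sets in 1 nucleus and 2 nuclei in 1 droplet cannot be told apart in these counts.

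PAX3 marked a split among the other 127 nuclei, a split picked after values had been seen. PAX3 had 0 UMIs in 21 of them (median 10404 UMIs), 1 UMI in 6 and at least 2 UMIs in 100 (median 10095.5). The depths were alike. Nuclei without PAX3 had CDH6 at 253.1 CPM against 2061 in those with PAX3, an 8.14-fold difference. DCC stood at 786.6 against 3349 CPM, and CTNNA2 at 1834 against 2561. BOC, a hedgehog co-receptor, stood at 7.79 against 161.6, SLIT1 at 7.79 against 142.1, GLIS3, a zinc finger factor, at 15.6 against 357.6, and MITF, a melanocyte and neural crest factor, at 35.1 against 231.9. HOXC9 had 0 UMIs in the 21 nuclei and 109 in the 100.

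Other genes did not follow PAX3. AUTS2 stood at 3080 CPM without PAX3 and 3293 with it, NCAM1 at 1417 and 1449, and KRT18 at 977.4 and 954.4. Nuclei without PAX3 were higher in RBFOX1, a neuronal splicing factor (599.7 CPM against 97.2), TENM2 (677.5 against 151.8), CDH11, a mesenchymal cadherin (331 against 53.9), and STXBP6 (327.1 against 45.7). These genes were ranked by the same counts that they are reported from, and RBFOX1, TENM2 and CDH11 each had UMIs in 9 to 11 of the 21 nuclei. The 21 nuclei are therefore mixed themselves.

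**Figure D5:**
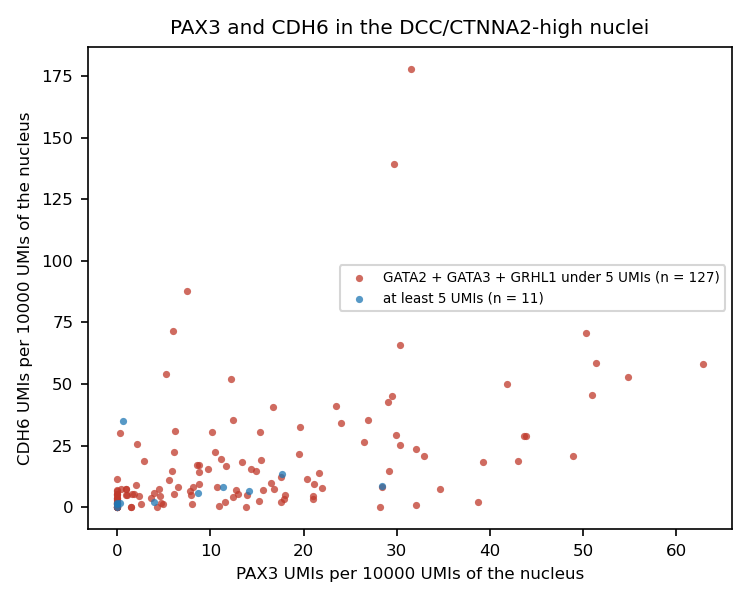
Each point is 1 DCC/CTNNA2-high nucleus, with PAX3 (x axis) and CDH6 (y axis) in UMIs per 10000 UMIs of the nucleus; blue points are the 11 nuclei with at least 5 UMIs of GATA2, GATA3 and GRHL1. PAX3 ranges from 0 to 62.8 and CDH6 from 0 to 177.9, and 24 nuclei lie at 0 for PAX3.

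Across the 127 nuclei, 325 Spearman correlations were computed, for 300 pairs of 25 genes and for each gene with depth. The genes were picked after values had been seen, and the values are descriptions. PAX3 and CDH6 had a correlation of 0.56, and CDH6 and MITF 0.487. PAX3 and BMP4, a signal of the dorsal neural tube and ectoderm, had 0.484, while summed BMP4 stood at 89.6 CPM in the nuclei without PAX3 and 109.4 in those with at least 2 UMIs, a ratio of 0.819 (0.502 to 1.28). HOXB6 and HOXC6, from different clusters, had 0.591, and both were found in 73 of the 138 nuclei and neither in 29. TOP2A and CENPF, genes of dividing cells, had 0.504. LMX1A and WNT3A, both known from the roof plate, had 0.419, with LMX1A in 19 of the 127 nuclei and WNT3A in 21, so that most nuclei had neither gene. Of the 21 of 138 nuclei with LMX1A, 20 had PAX3. Correlation with depth lay between -0.08 and 0.256 for the 25 genes.

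Signalling genes were read against the 20.7% of all genes that were higher and 17.3% that were lower. Receptors of FGF, FGFR1 at 318.7 CPM and FGFR2 at 469.9, stood above the other deep barcodes at 44.7 and 69.7, and 9 of 17 FGF genes compared were at least 2-fold higher and 2 lower. Of 14 WNT response genes, 6 were at least 2-fold higher and 0 lower. They included LEF1, the WNT-responsive DNA-binding factor, at 506.5 CPM against 17.1, and NKD1, a feedback inhibitor, at 503.9 against 28.0. AXIN2, another feedback target, stood at 31.3 against 19.2 and was not 2-fold higher. Of 11 activin and Nodal genes, 3 were at least 2-fold higher, a share near that of all genes, and 0 lower. Imprinted genes were higher in 6 of 11 and lower in 0, among them SGCE (128.8 CPM against 11.3) and PLAGL1 (151.3 against 16.7). Against shallow barcodes, 3 of 14 imprinted genes were at least 2-fold higher and 5 lower, beside 41.6% and 22.4% of all genes. SGCE had 0 UMIs in the 3 blastocyst groups.

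Cell cycle genes were even. Of 16 S phase and 18 G2 and M phase genes, 0 differed by 2-fold from the other deep barcodes, with median log2 ratios of -0.06 and 0.30. TOP2A stood at 300.4 CPM against 222.5 and MKI67 at 91.3 against 88.1. Markers of further cell types were few. DCN, a fibroblast proteoglycan, had 0 UMIs in the chosen nuclei, and of 10 fibroblast and mesenchyme genes compared 3 were at least 2-fold higher and 1 lower, near the 20.7% and 17.3% of all genes. The 16 genes of that list summed to 244.6 CPM against 156.2 in the other deep barcodes and 667.6 in the shallow ones. The 15 primitive streak and mesoderm genes summed to 183.1 CPM against 224.6, with MSGN1, TBX6, LHX1 and HAND2 at 0. The 7 germ cell genes summed to 20.9 CPM against 11.7, and the 7 amnion genes to 134 against 59.3, of which BMP4 made up 88.7 CPM.

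Beyond the lists, genes were ranked by ratio to the other deep barcodes among those with at least 100 UMIs in the 2 sums and 50 CPM in the higher one. MLLT3, a subunit of the transcription elongation machinery, led in level at 2444 CPM against 23.8, a ratio of 102.7 (79.1 to 135.8), with 117 of 138 nuclei above the highest of the others. SRGAP3, a SLIT-ROBO GTPase-activating protein, stood at 537.8 CPM against 3.76, with 127 nuclei against 6. DACH1, a repressor of eye, limb and neural development, stood at 1527 against 22.6, ZNF423, a factor of cerebellar and fat precursors, at 749 against 9.6, and CACNA1A, a neuronal calcium channel, at 293.7 against 4.17. ST8SIA2, which adds polysialic acid to NCAM1, had 126 UMIs in 62 nuclei against 1 UMI. Others among the 15 highest were PKNOX2, LDB2, KCNK10, ADAMTS18, ASXL3, ST8SIA1, PTCHD4 and THSD7A, at 75.6 to 333.8 CPM.

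Among the 10 lowest, MFAP5 had most of its UMIs in few nuclei. It stood at 316.6 CPM against 3618. Of the 607 MFAP5 UMIs in the chosen nuclei, 519 lay in the 11 nuclei with trophoblast factors. HSD3B1, a steroid enzyme, stood at 6.78 against 71.0 CPM. Others of the 10 were CYP2C87, ALS2CL, RADX, FYB1, PTK2B, SH3TC1 and SLC35F4, at 4.17 to 15.7 CPM in the chosen nuclei.

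Against the blastocyst, genes were ranked in the same way. DACH1 stood at 1527 CPM against 4.14 in epiblast-gated and 5.16 in hypoblast-gated nuclei, ROR2, a WNT5A receptor, at 902.3 against 3.1 and 3.79, and RGMA, the NEO1 ligand, at 444.9 against 1.03 and 1.38. The lowest were SLC5A11, SPIC, DISP3, DNAH8 and TDRD9 against the epiblast-gated nuclei. SPIC, an ETS factor, had 1 UMI in the chosen nuclei and stood at 201.7 CPM in epiblast-gated and 274.2 in hypoblast-gated nuclei. PIWIL2, of the piRNA pathway, had 0 UMIs and was at least 99.2-fold lower than in hypoblast-gated nuclei against the floor of 3 counts. Against trophectoderm-gated nuclei ZNF521, TSPAN18, SRGAP3, DACH1 and RGMA led, and FAM151A, ACOT11, PIWIL2, TDRD9 and C3H1orf141 were lowest.

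The shallow blastoid barcodes shared part of the profile at lower levels. PAX3 stood there at 105.1 CPM, against 1351 in the chosen nuclei. DCC, which helped choose the nuclei, stood at 70.5 against 2521, which is a description only. Of 15342 genes, 41.6% were at least 2-fold higher in the chosen nuclei and 22.4% at least 2-fold lower, a split that became 27.5% and 35.3% when the sums were scaled by the median ratio of genes with at least 100 UMIs. The median log2 ratio of those genes, which the scaling set to 0, was 0.74 against shallow barcodes, -0.34 against epiblast-gated nuclei and -0.05 to -0.01 in the other 3 comparisons. Of the 55 adhesion and guidance genes, 52 were at least 2-fold higher in the chosen nuclei than in shallow barcodes, and of 26 HOX genes, 16 were higher and 2 lower. The highest ranked genes were GPR171, GLRA2, SHISA9, LDB2 and LMX1A, and the lowest TKDP4, F2RL1, IGFBP6, GTSF1 and JAGN1.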

How the data were processed

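Counts are UMI counts per gene and barcode that the authors deposited. Per the file headers the tables come from Cell Ranger 7.2.0, while the submitters' processing notes name Cell Ranger 7.1.0 and Seurat 4.3.0. The genome build and annotation are not given in the sources used here. Counts of the 94 symbols with several identifiers were summed. SOX3, GSC, TDGF1 and POU5F1 were not analysed here, and some genes are not reported.

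Deep barcodes passed the filters given above and no doublets were removed. Blastocyst nuclei were gated on at least 2 UMIs of the stated genes, outnumbering GATA2, GATA3 and GRHL1 UMIs, with the epiblast gate first. Trophectoderm-gated nuclei had at least 2 UMIs of those 3 genes and no fewer than the hypoblast genes. UMIs were summed per group and divided by the total. Counts under 3 were set to 3 for ranks and list medians, and a gene was compared where both sums together held at least 10 of its UMIs. Gating genes were left out of list counts. Named genes are those of the lists and, beyond them, the 15 highest and 10 lowest ratios to the other deep barcodes and 5 each way elsewhere, among genes with at least 100 UMIs, 50 CPM and 10 nuclei. Within the members, genes were ranked among those with at least 60 UMIs in both subsets together and 8 nuclei of the higher subset, with 15 taken each way. Nuclei were thinned to 4000 UMIs with a fixed seed. The members and lists were chosen with earlier results of these data known. The HOX and other families, the PAX3 split, the group of 11 nuclei, the correlated genes and some single genes were picked after values had been seen, and sub-clusterings that were also looked at are not used. Python 3.11.15, numpy 2.4.6, scipy 1.17.1, pandas 2.3.3, scanpy 1.11.5 and matplotlib 3.10.9 were used, and the steps were tested on simulated data. Alternatives are in the closing section.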

Additional observations from a re-analysis of the deposited data

How the results depend on the processing

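Rule limits, depth, scaling and filters were varied, and 1 alternative, leaving out the 11 nuclei with at least 5 UMIs of the trophoblast factors, was chosen after seeing the data. No paired analysis was possible because each group is 1 library; for the same reason no replicate could be left out. The number of members was 104 to 179 across alternatives. Members made up 17.9% of barcodes from 2000 UMIs and 38.2% of deep barcodes when DCC alone was used. From 2000 UMIs the median log2 ratio to the other deep barcodes was -0.57 for hypoblast and 2.17 for HOX genes, and with DCC alone it was 1.95 for adhesion genes. With DCC alone TENM2 turned, to -0.72. With the median-ratio scaling, 4226 genes were higher and 5421 lower than in shallow barcodes. Among genes with at least 100 UMIs, the numbers higher and lower were 1133 and 1161 against the other deep barcodes, 3197 and 2154 against shallow, 1192 and 881 against epiblast-gated, 1347 and 1523 against hypoblast-gated and 1508 and 1510 against trophectoderm-gated, fewer because fewer genes were compared. There, the HOX median was 4.01, 5.41 and 6.77 against the other deep, epiblast-gated and hypoblast-gated groups, the trophoblast median against epiblast-gated nuclei was 3.45, and the neural median was 3.58, 4.08 and 4.62. With no minimum count the HOX median was 2.44, 2.13 and 3.66 and the neural median 2.69, 1.29 and 1.98 in the same order, and with DCC alone the neural median against the other deep barcodes was 2.04. The hypoblast median also changed sign with DCC alone (-0.15 against the other deep barcodes) and with the median-ratio scaling (0.09 against epiblast-gated nuclei). At 2 UMIs, 45.7% of members had pluripotency and 3.62% hypoblast regulators, against 32.7% and 6% of the other deep barcodes, so that the order of the hypoblast shares turned. Over all alternatives, with those printed above counted in, 1549 gene ratios, 245 list medians and 25 shares stayed within their intervals. For medians this is the 95% interval over the listed genes, which is wide. Of the gene counts, 128 stayed within 1.5 times. Outside these limits lay 7 list medians, 12 gene counts and 4 shares. Another 256 gene ratios moved beyond counting error without changing direction where they were at least 2-fold. Genes with few UMIs are limited by depth.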
